A study of Mus musculus with 12 samples.

Results

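The circadian clock genes described here are *Arntl*, *Per1*, *Per2*, *Per3*, *Cry2*, *Nr1d1*, *Nr1d2*, *Dbp*, *Tef* and *Bhlhe41*, which make 10 of the 19938 genes measured. They were chosen by name, though with earlier results of these data known. Every one of the 10 was represented by 1 probe set that carries a single gene symbol. RNA from 2 skeletal muscles of male mice on a regular diet, aged 10 to 12 weeks, was hybridised to 12 mouse Gene 1.0 ST arrays. The groups were diaphragm of *Cox6a2*-/- (KO) mice, diaphragm of wild-type (WT) mice, gastrocnemius of KO mice and gastrocnemius of WT mice, each with 3 arrays. The KO mice lacked *Cox6a2*, the heart and skeletal muscle form of a subunit of cytochrome c oxidase, in every tissue. The WT mice were age- and sex-matched C57BL/6J animals from a commercial supplier, which the sources used here do not describe as littermates. Mice were kept on a light and dark cycle, and the time of day of dissection is not given in the sources used here for any group. Values are log2 signals as deposited, and fold changes are differences of log2 signal. Groups were compared for all genes together in 1 limma model, a gene being called at a Benjamini-Hochberg adjusted p under 0.05. Replicates are labelled as biological, and p-values measure only the spread between these samples.

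The labels were checked before the clock genes were read. *Cox6a2* averaged 6.89 in KO diaphragm and 11.89 on the arrays labelled WT diaphragm, and 6.93 in KO gastrocnemius and 11.74 in WT gastrocnemius. The tissue label of 1 group went against its markers. *Hoxc10*, expressed in hindlimb and not in the forepart of the body, averaged 4.18 in KO diaphragm and 8.68 on the arrays labelled WT diaphragm, with 8.53 in KO gastrocnemius and 8.44 in WT gastrocnemius. *Upk3b*, made by the mesothelial lining of the diaphragm, averaged 9.31 in KO diaphragm, 5.41 on the arrays labelled WT diaphragm, 5.16 in KO gastrocnemius and 5.49 in WT gastrocnemius. *Myh4*, the fast myosin heavy chain of hindlimb muscle, averaged 8.96 in KO diaphragm, 13.56 on the arrays labelled WT diaphragm, 13.64 in KO gastrocnemius and 13.64 in WT gastrocnemius. Pearson correlations over the 19938 genes were 0.9627 to 0.9752 between KO diaphragm and the arrays labelled WT diaphragm, and 0.9887 to 0.9916 between those labelled arrays and WT gastrocnemius. This group is therefore called the arrays labelled WT diaphragm throughout, every direction in diaphragm is drawn against it, and in that comparison genotype and muscle cannot be told apart.

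The circadian clock of mammalian cells is a loop of transcription and repression that takes about a day to run. BMAL1, the product of *Arntl*, pairs with CLOCK on E-box sequences and switches on the Per and Cry genes, whose proteins return to the nucleus and block that pair. It also switches on *Nr1d1* and *Nr1d2*, which encode the REV-ERB receptors that repress *Arntl* through RORE sequences, and *Dbp* and *Tef*, which encode PAR bZIP activators acting on D-box sequences. In mouse peripheral tissues *Arntl* transcript peaks at about the opposite time of day to *Nr1d1* and *Dbp*, so that the positive arm and the negative arm of the loop are usually read together. Skeletal muscle has a clock of its own, which sets daily rhythms in metabolic genes.

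Promoter letters are shown first because the members are defined by their place in this loop. RefSeq promoters of GRCm38.p6, spanning 250 bases before to 50 bases after each annotated start, were present for 9 of the 10 members, all but *Per2*. They were searched on both strands for the E-box CACGTG, the variant E-box CACGTT, the D-box TTANGTAA and the core TAGGTNA of the RORE, and no matches overlapped in the members' promoters. The E-box lay in 7.15% of all 32851 promoters of this length and in those of *Per1*, *Tef* and *Bhlhe41*. The variant E-box lay in 4.68% of all promoters and in those of *Cry2* and *Nr1d1*, the D-box in 2.32% and in that of *Per3*, and the RORE core in 8.29% and in that of *Arntl*. For *Nr1d2* and *Dbp* these letters were not found in the window. A match is a description of the sequence and does not show a bound site. The windows below show the E-box of the members that differed most between groups, *Tef* (at both of its starts) and *Bhlhe41*, beside that of *Per1*, then the 2 D-box matches of *Per3*, and the 2 RORE cores of *Arntl*. All are written 5′ to 3′ on the strand of the gene with the match in capitals. They lie at chr6:145865499-145865598 (minus strand) for *Bhlhe41*, chr15:81802521-81802620 and chr15:81811251-81811350 (plus) for *Tef*, chr11:69098758-69098857 (plus) for *Per1*, chr4:151044796-151044895 (minus) for *Per3*, and chr7:113207493-113207522 and chr7:113207529-113207558 (plus) for *Arntl*.
*Bhlhe41*: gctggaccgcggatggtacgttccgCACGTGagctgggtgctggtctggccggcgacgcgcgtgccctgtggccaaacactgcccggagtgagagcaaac
*Tef*, first start: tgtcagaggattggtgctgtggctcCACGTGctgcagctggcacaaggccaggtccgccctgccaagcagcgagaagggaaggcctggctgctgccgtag
*Tef*, second start: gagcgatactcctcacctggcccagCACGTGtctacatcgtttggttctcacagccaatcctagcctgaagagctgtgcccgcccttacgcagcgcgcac
*Per1*: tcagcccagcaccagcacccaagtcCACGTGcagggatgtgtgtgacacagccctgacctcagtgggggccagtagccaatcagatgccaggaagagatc
*Per3*: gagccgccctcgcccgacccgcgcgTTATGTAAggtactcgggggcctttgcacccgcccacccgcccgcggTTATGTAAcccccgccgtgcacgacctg
*Arntl*, first match: ttggtcggaaagTAGGTTAgtggtgcgaca
*Arntl*, second match: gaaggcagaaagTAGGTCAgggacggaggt

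In gastrocnemius, where the labels of both groups fitted their markers, none of the 10 clock genes was called between KO and WT mice. The members nearest to a call were *Arntl*, which was higher in every KO array than in any WT array, and *Cry2*, which was lower in every KO array. Over all genes, 0.406% were called higher and 0.186% lower in KO gastrocnemius, a split of 68.6% higher among the calls that became 86.6% after each array was centred on its median. Of the members, 5 had an unadjusted p under 0.05, against 16.4% of all genes. The groups did not overlap for 5 members, against 23.2% of all genes, and their exact permutation p of 0.1 (two-sided, 3 arrays against 3) is as low as this design can reach.

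*Arntl*, the activator of the loop, had log2 signals of 8.22, 7.60 and 8.09 in KO gastrocnemius, against 7.15, 7.48 and 6.92 in WT gastrocnemius. The groups did not overlap, although the lowest KO array and the highest WT array lay close together. The log2 fold change was 0.79 (95% confidence interval 0.31 to 1.26) with an adjusted p of 0.12 in limma, so that it did not pass the threshold. *Clock*, its partner, averaged 8.29 ± 0.14 in KO gastrocnemius and 7.88 ± 0.15 in WT gastrocnemius (SD, n = 3 each), a log2 fold change of 0.41 that was not called either (limma, adjusted p = 0.091).

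Among the period genes, which encode repressors, *Per1* had log2 signals of 7.95, 8.82 and 8.77 in KO gastrocnemius, against 7.50, 8.63 and 7.80 in WT gastrocnemius. *Per2* was at 6.10, 6.88 and 6.76 in KO gastrocnemius, against 7.15, 7.16 and 7.09 in WT gastrocnemius. *Per3* was at 7.02, 7.14 and 7.17 in KO gastrocnemius, against 7.32, 7.45 and 7.31 in WT gastrocnemius. All KO arrays lay below all WT arrays for *Per2* and *Per3*, while the groups overlapped for *Per1*, whose log2 fold change had the other sign. The log2 fold changes were 0.53 for *Per1*, -0.55 for *Per2* and -0.25 for *Per3*, with adjusted p of 0.42, 0.24 and 0.47 in limma. *Cry2*, a cryptochrome that represses CLOCK and BMAL1 together with the period proteins, had log2 signals of 7.74, 7.98 and 8.15 in KO gastrocnemius, against 8.26, 8.72 and 8.41 in WT gastrocnemius. No array of one group reached the other, and the log2 fold change was -0.50 (95% confidence interval -0.78 to -0.23; limma, adjusted p = 0.091).

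The receptor genes of the second loop did not move together. *Nr1d1* had log2 signals of 10.90, 10.75 and 10.99 in KO gastrocnemius, against 10.90, 10.09 and 10.13 in WT gastrocnemius. A single WT array, replicate 1, was as high as the KO arrays. The log2 fold change was 0.50 (limma, adjusted p = 0.16), and without that array it was 0.77 and was called (limma, adjusted p = 0.0036), the only change of a member's call in gastrocnemius when arrays were left out in turn. *Nr1d2* was at 9.43, 9.73 and 9.57 in KO gastrocnemius, against 9.73, 9.61 and 9.91 in WT gastrocnemius, and the ranges overlapped (log2 fold change -0.17).

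Of the output genes, *Dbp* had log2 signals of 9.15, 9.53 and 9.31 in KO gastrocnemius, against 9.75, 8.83 and 9.75 in WT gastrocnemius. Its KO arrays lay within the range of the WT arrays, with a log2 fold change of -0.11 (95% confidence interval -0.73 to 0.50). *Tef* was at 9.27, 9.29 and 9.37 in KO gastrocnemius, against 9.56, 9.79 and 9.55 in WT gastrocnemius. These groups did not overlap, and the log2 fold change was -0.32 (limma, adjusted p = 0.25). *Bhlhe41*, also known as Dec2, which encodes an E-box repressor, was at 9.59, 9.54 and 9.76 in KO gastrocnemius, against 9.71, 9.75 and 9.52 in WT gastrocnemius. The ranges overlapped almost fully, and the log2 fold change was -0.03 (95% confidence interval -0.24 to 0.17).

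**Figure D1:**
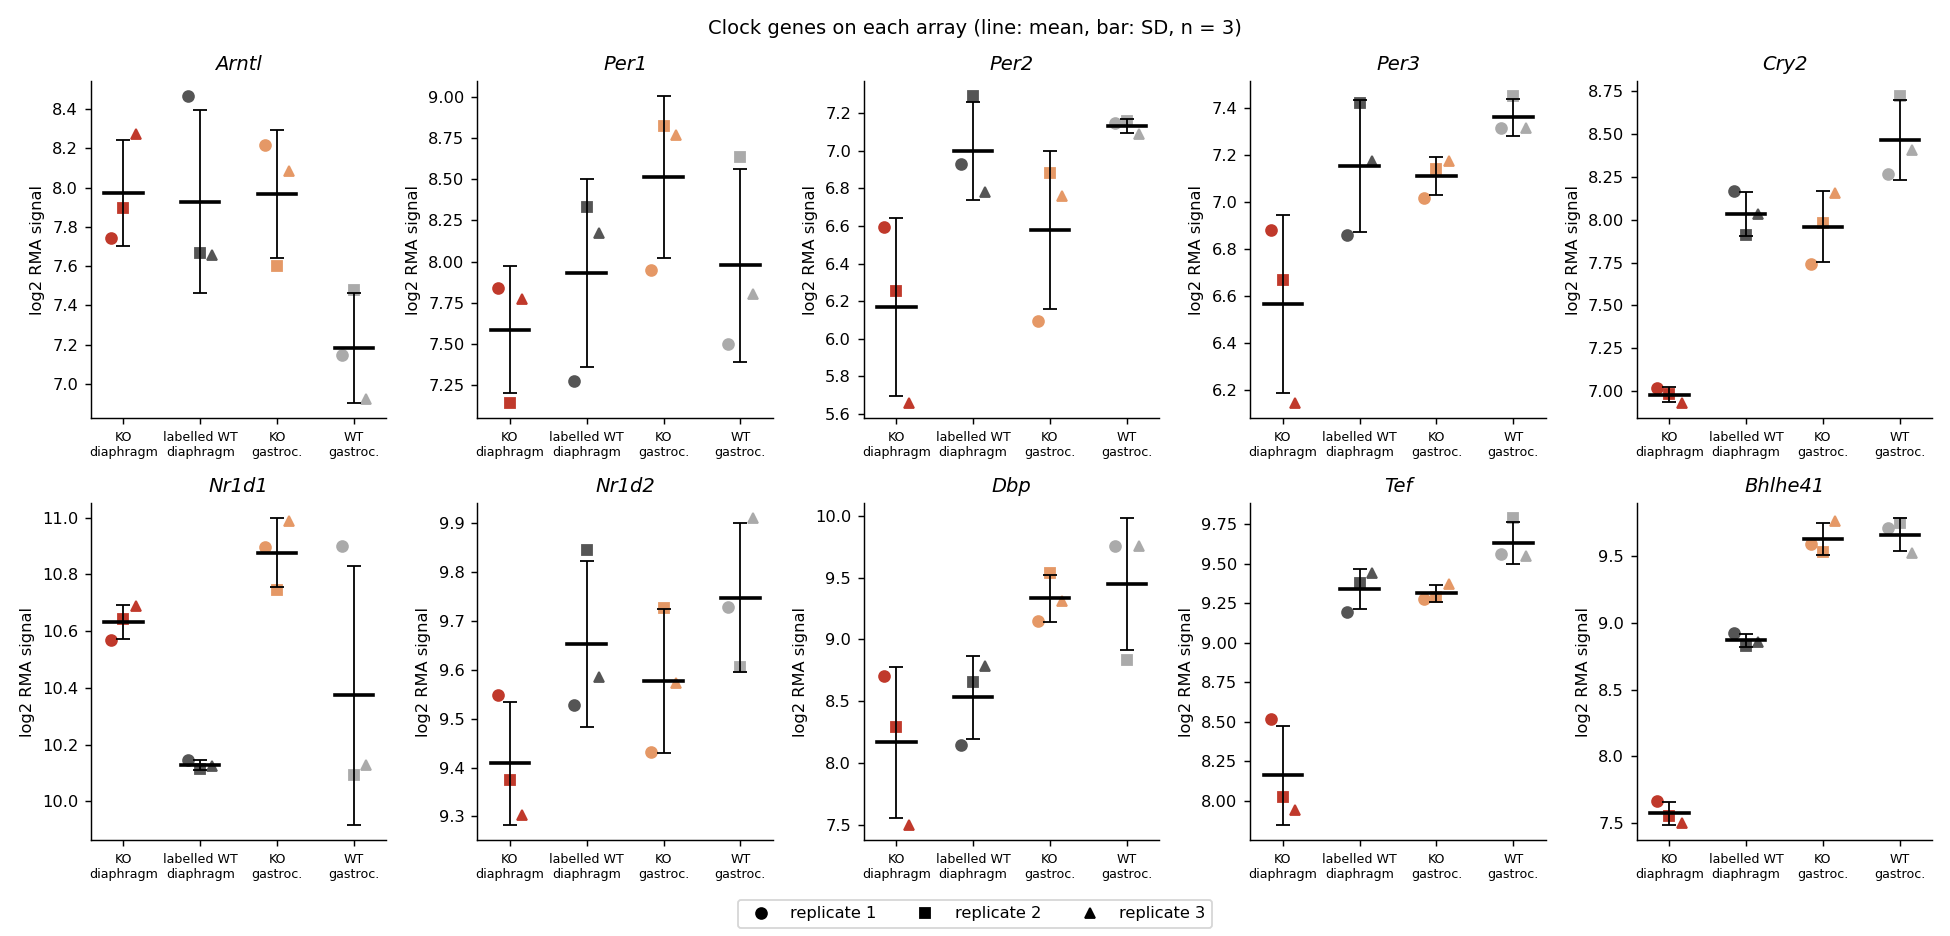
Log2 RMA signal of each clock gene (vertical axes, each with its own range) on every array, by group (horizontal axes). Points are arrays with 1 symbol per replicate number, lines are group means and bars are 1 SD (n = 3). *Bhlhe41*, *Tef* and *Cry2* sat lowest on the KO diaphragm arrays, and *Arntl* sat lowest on the WT gastrocnemius arrays.

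No gene of the lists for mesothelium, skeletal muscle, white adipocytes, macrophages, hindlimb position or cervical position was called in gastrocnemius. The summed linear signals of 4 of these lists nevertheless did not overlap between the groups. Macrophage markers summed to 1208 to 1443 in KO gastrocnemius, against 1498 to 1930.3 in WT gastrocnemius (10 of 10 with a negative log2 fold change). White adipocyte markers summed to 338 to 454 in KO gastrocnemius, against 480.3 to 818 in WT gastrocnemius (5 of 5 negative), and mesothelial markers to 302 to 307 in KO gastrocnemius, against 336 to 396 in WT gastrocnemius (8 of 8 negative). The mesothelial markers were dim in both groups. Their mean log2 signals ran from 4.73 (*Lrrn4*) to 5.70 (*Krt8*) in KO gastrocnemius and from 4.82 (*Upk1b*) to 6.21 (*Krt8*) in WT gastrocnemius. Their sums therefore say little about mesothelial cells here. Skeletal muscle markers summed to 76315 to 76991 in KO gastrocnemius, against 72387 to 76008 in WT gastrocnemius (7 of 8 positive). The part of these in the clock gene values was not tested. Read as the 2 arms of the loop, the gastrocnemius values did not run in opposite directions throughout. On the positive side, 4 of the 5 measured genes had a positive value and 1 a negative one. The log2 fold changes were 0.79 for *Arntl*, 0.41 for *Clock* and -0.16 for *Rora*. The remaining values were 0.14 for *Rorb*, which is also the median of this side, and 0.008 for *Arntl2*. Both of these genes were dim. *Rorb* had a mean log2 signal of 4.45, above 20.2% of all genes, and *Arntl2* of 5.49, above 38.3%. The count and the median therefore say little about the positive side beyond *Arntl* and *Clock*. On the negative side, 4 of the 10 measured genes had a positive value and 6 a negative one. *Nr1d1*, which usually peaks opposite *Arntl*, had a fold change of the same sign as *Arntl*, and *Dbp* differed by less than the spread between replicates. The median log2 fold change of the 10 members was -0.14, beside -0.015 over all genes. With no known hour of dissection and no time series, a difference in phase, in amplitude and in mean level cannot be told apart.

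In diaphragm, 5 clock genes fell and 1 rose in KO mice relative to the arrays labelled WT diaphragm. Those that fell were *Bhlhe41*, *Tef*, *Cry2*, *Per2* and *Per3*, with log2 fold changes of -1.30 to -0.59, and *Nr1d1* rose by 0.50, while *Arntl* had a difference of 0.04. Over all genes, 16.3% were called higher and 11.2% lower, a split of 59.3% higher that became 41% once arrays were centred on their medians and 49.6% with quantile normalization. The arrays of the groups did not overlap for 5 members, against 43.1% of all genes. The median log2 fold change of the members was -0.48, beside -0.044 over all genes. Fewer cells of a type and less RNA per cell cannot be told apart in such bulk samples.

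The largest fall among the members was that of *Bhlhe41*. It had log2 signals of 7.67, 7.55 and 7.50 in KO diaphragm, against 8.92, 8.83 and 8.86 on the arrays labelled WT diaphragm. The gap between the groups was wide beside the spread within them, and the log2 fold change was -1.30 (95% confidence interval -1.50 to -1.10; limma, adjusted p = 2.9e-07). *Tef* was at 8.52, 8.02 and 7.94 in KO diaphragm, against 9.19, 9.38 and 9.44 on the arrays labelled WT diaphragm. Its groups were also separate, with a log2 fold change of -1.18 (95% confidence interval -1.46 to -0.89; limma, adjusted p = 1.8e-05). *Dbp*, the other PAR bZIP gene among the members, was at 8.71, 8.29 and 7.50 in KO diaphragm, against 8.15, 8.66 and 8.79 on the arrays labelled WT diaphragm, and the ranges overlapped (log2 fold change -0.36; limma, adjusted p = 0.37).

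Among the repressors, *Cry2* had log2 signals of 7.02, 6.98 and 6.93 in KO diaphragm, against 8.17, 7.91 and 8.03 on the arrays labelled WT diaphragm. It fell by 1.06 on the log2 scale (limma, adjusted p = 2.8e-05), and its KO arrays lay within 0.1 of each other. *Per2* was at 6.60, 6.25 and 5.66 in KO diaphragm, against 6.93, 7.29 and 6.78 on the arrays labelled WT diaphragm, with no overlap. *Per3* was at 6.88, 6.67 and 6.15 in KO diaphragm, against 6.86, 7.42 and 7.18 on the arrays labelled WT diaphragm, where 1 KO array passed the lowest labelled WT array. The log2 fold changes were -0.83 (limma, adjusted p = 0.012) for *Per2* and -0.59 (limma, adjusted p = 0.016) for *Per3*. Both calls were lost when single arrays were left out: without KO diaphragm replicate 3 the log2 fold changes were -0.57 for *Per2* and -0.38 for *Per3*, and without replicate 2 labelled WT diaphragm they were -0.68 for *Per2* and -0.45 for *Per3*, none of them called. Both were also lost with the methods' t-test (unpaired, gene by gene), adjusted or not, and that of *Per3* with the 2 groups fitted alone (limma, adjusted p = 0.056). *Per1* was at 7.84, 7.14 and 7.77 in KO diaphragm, against 7.28, 8.33 and 8.18 on the arrays labelled WT diaphragm. Its ranges overlapped, and the log2 fold change was -0.34 (95% confidence interval -1.04 to 0.35).

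*Nr1d1* went the other way. It had log2 signals of 10.57, 10.64 and 10.69 in KO diaphragm, against 10.15, 10.11 and 10.13 on the arrays labelled WT diaphragm. These were among the tightest groups of any member, and the log2 fold change was 0.50 (95% confidence interval 0.15 to 0.86; limma, adjusted p = 0.033). The difference stayed at 0.48 to 0.54 when arrays of any group were left out in turn, but the call was lost without any 1 of 5 of the 6 diaphragm arrays and after quantile normalization (limma, adjusted p up to 0.088). *Nr1d2* was at 9.55, 9.37 and 9.30 in KO diaphragm, against 9.53, 9.85 and 9.59 on the arrays labelled WT diaphragm, with overlap by 1 array and a log2 fold change of -0.24 (limma, adjusted p = 0.14). *Arntl* was at 7.74, 7.90 and 8.27 in KO diaphragm, against 8.46, 7.67 and 7.66 on the arrays labelled WT diaphragm. These groups overlapped, and the difference of 0.04 (95% confidence interval -0.44 to 0.52) turned to -0.03 with median centring and -0.04 with quantile normalization.

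**Figure D2:**
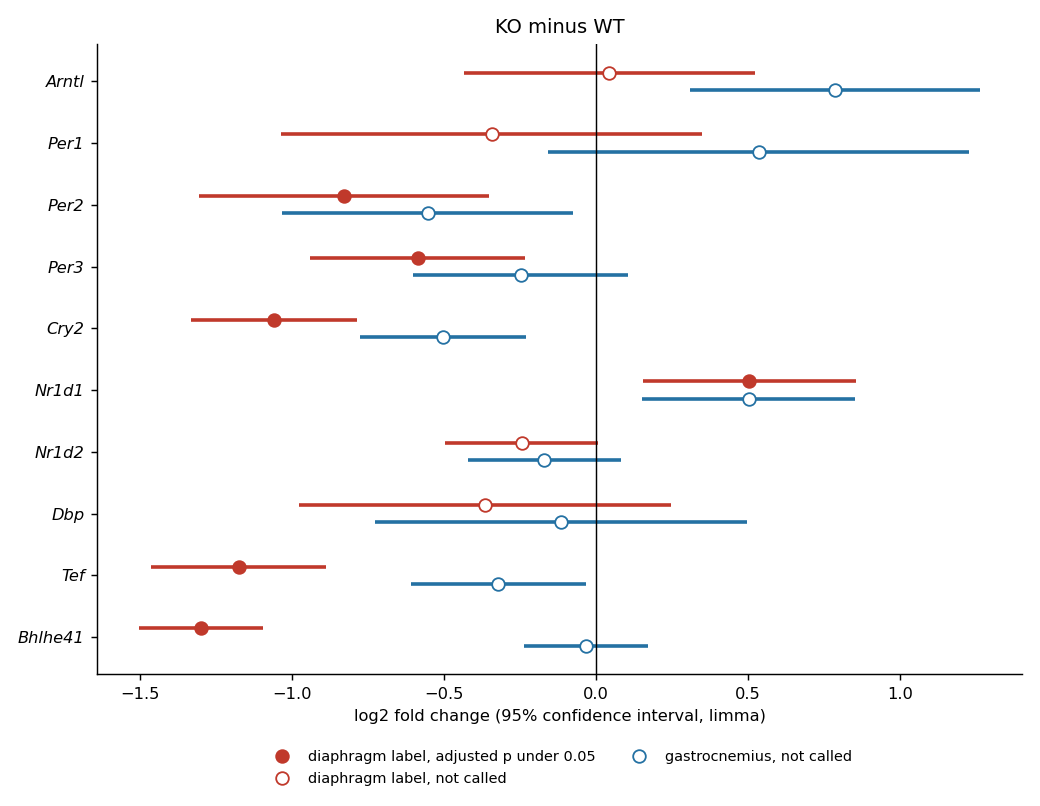
Log2 fold change of each clock gene, KO minus WT (horizontal axis), for the diaphragm label (red) and gastrocnemius (blue). Lines are 95% confidence intervals from limma (3 arrays against 3) and filled points have an adjusted p under 0.05. In the diaphragm label 5 genes lie below 0 and *Nr1d1* above it with filled points, and no point is filled for gastrocnemius.

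Whether KO and WT differed by another amount in diaphragm than in gastrocnemius was tested by the interaction in the same model. Over all genes, 8.76% were called with a higher and 6.07% with a lower difference in diaphragm. Of the members 2 were called, both lower: *Bhlhe41* with an interaction of -1.27 (95% confidence interval -1.55 to -0.98; limma, adjusted p = 2.7e-05) and *Tef* with -0.86 (95% confidence interval -1.26 to -0.45; limma, adjusted p = 0.0069). *Cry2* had an interaction of -0.55 that missed the threshold (limma, adjusted p = 0.053). It passed in 7 of 19 alternatives and missed in 12. Those that passed included median centring and quantile normalization (limma, adjusted p = 0.025 and 0.026). They also included trended robust eBayes (limma, adjusted p = 0.043) and omission of WT gastrocnemius replicate 2 (limma, adjusted p = 0.014). *Nr1d1* had an interaction of 0.00 (95% confidence interval -0.49 to 0.50), its differences between KO and WT being 0.50 in diaphragm and 0.50 in gastrocnemius. *Arntl* had an interaction of -0.74 (limma, adjusted p = 0.14). The interaction rests on the arrays labelled WT diaphragm, and their part in it was not tested.

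Other cell types moved with the diaphragm comparison. Of the mesothelial markers 8 of 8 were called higher in KO diaphragm, and their summed linear signal ran from 2037 to 3694 in KO diaphragm, against 329 to 337 on the arrays labelled WT diaphragm. Macrophage markers were called higher for 9 of 10, with sums of 3109 to 5268 in KO diaphragm, against 1158 to 1768 on the arrays labelled WT diaphragm. White adipocyte markers were called higher for 4 of the 5 measured, with sums of 515 to 2441 in KO diaphragm, against 309.6 to 399.6 on the arrays labelled WT diaphragm. The skeletal muscle markers summed to 69773 to 71921 in KO diaphragm, against 69975 to 76496 on the arrays labelled WT diaphragm. In that list, 3 of 8 were called higher and 2 lower. Called lower were 9 of 11 hindlimb position genes, and called higher were 4 of 6 cervical position genes. The part of these tissues in the clock gene values was not tested.

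The fold changes between diaphragm and gastrocnemius within KO mice do not use the arrays labelled WT diaphragm. The spread of those arrays still enters the p-values and intervals, through the model shared by the 4 groups. This comparison shares its KO diaphragm arrays with the comparison above, so that the values are given side by side and no overlap is counted. Here 6 clock genes were lower in KO diaphragm and none was higher, against 11.2% of all genes called lower and 17.7% called higher, and 44.8% of all genes had groups that did not overlap, as 7 members did. *Bhlhe41* fell most, with means of 7.57 ± 0.09 in KO diaphragm and 9.63 ± 0.12 in KO gastrocnemius (SD, n = 3 each) and a log2 fold change of -2.06 (limma, adjusted p = 3e-09). *Dbp* averaged 8.17 ± 0.61 in KO diaphragm and 9.33 ± 0.19 in KO gastrocnemius (SD, n = 3 each). It fell by 1.17 on the log2 scale (limma, adjusted p = 0.0066), where it had a difference of -0.36 between KO diaphragm and the arrays labelled WT diaphragm. *Tef*, *Cry2* and *Per3* had log2 fold changes of -1.15, -0.98 and -0.55 between the KO muscles, beside -1.18, -1.06 and -0.59 against the arrays labelled WT diaphragm. *Per1* fell by 0.93 (limma, adjusted p = 0.044). The *Per1* call was lost without any 1 of KO diaphragm replicates 2 and 3 and KO gastrocnemius replicates 2 and 3 (log2 fold changes of -1.02 to -0.71), with trended robust eBayes (limma, adjusted p = 0.12), with the block as a random effect and with the methods' t-test. That of *Per3* was lost without KO diaphragm replicate 3 or KO gastrocnemius replicate 2 or 3, with log2 fold changes of -0.34, -0.53 and -0.51, and with the methods' t-test, which after Benjamini-Hochberg adjustment did not call *Dbp* either.

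The remaining members were not called between the KO muscles. *Nr1d1* averaged 10.63 ± 0.06 in KO diaphragm and 10.88 ± 0.12 in KO gastrocnemius (SD, n = 3 each), with no overlap and a log2 fold change of -0.24 (limma, adjusted p = 0.30). *Nr1d2* had a log2 fold change of -0.17, and *Per2* of -0.41, which was called only without KO gastrocnemius replicate 1 (log2 fold change -0.65; limma, adjusted p = 0.043). *Arntl* had means of 7.97 in both KO muscles (95% confidence interval of the difference -0.48 to 0.48). In this comparison 8 of 8 mesothelial, 10 of 10 macrophage and 4 of 5 white adipocyte markers were called higher in KO diaphragm, and their part was not tested. The median of the members was -0.74, beside 0.016 over all genes.

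Between the arrays labelled WT diaphragm and WT gastrocnemius, 1 clock gene was called. *Bhlhe41* averaged 8.87 ± 0.05 on the arrays labelled WT diaphragm and 9.66 ± 0.12 in WT gastrocnemius (SD, n = 3 each), a fall of 0.79 on the log2 scale (limma, adjusted p = 0.0019) that was not called by the methods' t-test after Benjamini-Hochberg adjustment. Few genes were called at all in this comparison, 0.296% higher and 0.166% lower. Of the members, 5 had an unadjusted p under 0.05, against 12.9% of all genes, and for 5 members the groups did not overlap, against 16.8% of all genes. These were *Arntl*, *Cry2*, *Dbp*, *Tef* and *Bhlhe41* in both counts. *Arntl* averaged 7.93 ± 0.46 on the arrays labelled WT diaphragm and 7.18 ± 0.28 in WT gastrocnemius (SD, n = 3 each), with a log2 fold change of 0.75 (limma, adjusted p = 0.17). *Dbp* averaged 8.53 ± 0.34 on the arrays labelled WT diaphragm and 9.45 ± 0.53 in WT gastrocnemius (SD, n = 3 each), a log2 fold change of -0.92 (limma, adjusted p = 0.18). The log2 fold changes of *Cry2* and *Tef* were -0.43 and -0.29. All members other than *Arntl* had a negative value, and the median was -0.23, beside 0.020 over all genes. For *Per1* the sign of its value of -0.05 turned when single arrays were left out.

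**Figure D3:**
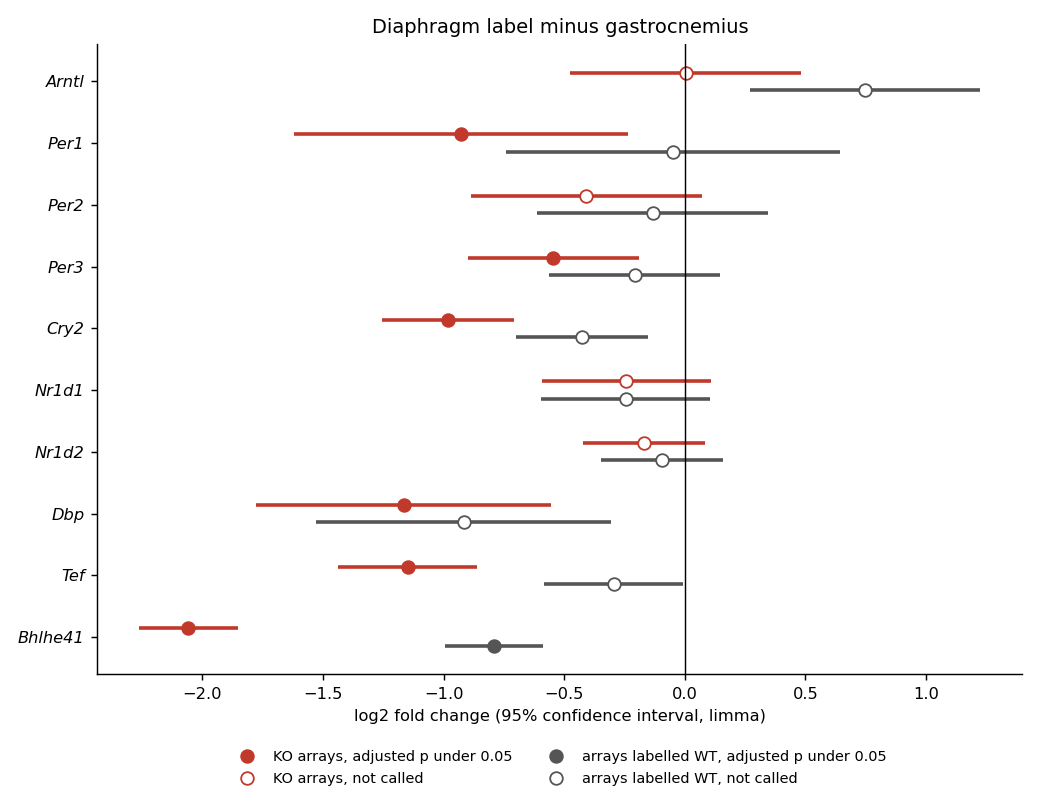
Log2 fold change of each clock gene, diaphragm label minus gastrocnemius (horizontal axis), within the KO arrays (red) and within the arrays labelled WT (grey). Lines are 95% confidence intervals from limma (3 arrays against 3) and filled points have an adjusted p under 0.05. In the KO arrays 6 genes have filled points, all below 0, and in the arrays labelled WT only *Bhlhe41* has.

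Across the 4 groups, *Arntl* was lowest in WT gastrocnemius and the other 3 groups averaged 7.93 to 7.97, closer to each other than their own spread. *Bhlhe41* averaged 7.57 in KO diaphragm, 8.87 on the arrays labelled WT diaphragm, 9.63 in KO gastrocnemius and 9.66 in WT gastrocnemius, of which the gastrocnemius groups did not differ beyond their spread. *Cry2* was at 6.98 in KO diaphragm, below every array of the other groups. *Nr1d2* had overlapping ranges in every comparison of groups given above. *Per1* did too, except between the KO muscles, where its arrays reached 7.84 in KO diaphragm and began at 7.95 in KO gastrocnemius.

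The rest of the clock was read from lists of the loop, its modifying enzymes and widely rhythmic outputs. Of 29 listed genes outside the members 25 were measured. None was called in gastrocnemius, against 0.406% of all genes called higher and 0.186% lower. In diaphragm 1 was called higher and 9 lower, against 16.3% of all genes called higher and 11.2% lower. In diaphragm, *Clock* rose in KO mice, averaging 8.45 ± 0.04 (SD, n = 3) in KO diaphragm and 8.04 ± 0.12 (SD, n = 3) for the labelled WT diaphragm (limma, adjusted p = 0.0099). *Rora*, a receptor that activates *Arntl* at the RORE, averaged 7.87 ± 0.10 (SD, n = 3) in KO diaphragm and 9.46 ± 0.36 (SD, n = 3) for the labelled WT diaphragm, a log2 fold change of -1.59 (limma, adjusted p = 7.3e-06). Lower calls in KO diaphragm also went to *Cry1* (log2 fold change -0.37), *Hlf*, the third PAR bZIP gene (-0.63), the casein kinase genes *Csnk1d* (-0.45) and *Csnk1e* (-0.60), *Gsk3b* (-0.49), *Fbxw11* (-0.50), the deubiquitinase gene *Usp2* (-0.90) and *Tsc22d3* (-1.32). The interaction was called lower for *Rora* (-1.43), *Nfil3* (-1.05), *Fbxw11* (-0.64), *Usp2* (-0.71) and *Tsc22d3* (-1.48), and for 6.07% of all genes.

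Within KO mice, 12 of these 25 genes were called lower in diaphragm than in gastrocnemius and 1, *Timeless*, higher (log2 fold change 0.52). Over all genes, 11.2% were called lower and 17.7% higher. Of the loop itself, *Rora* (-1.51), *Cry1* (-0.27), *Bhlhe40* (-0.999), *Ciart* (-1.63) and *Hlf* (-0.64) were lower, and lower calls also went to *Csnk1d* (-0.33), *Csnk1e* (-0.30), *Gsk3b* (-0.38), *Fbxw11* (-0.48), *Usp2* (-0.57), *Tsc22d3* (-1.32) and *Coq10b* (-0.53). *Ciart* encodes a repressor of the CLOCK and BMAL1 pair, and *Bhlhe40* is the paralog of *Bhlhe41*. With members and other genes together, 7 of the 10 measured genes of the negative arm were lower and none was higher, while of the 5 measured genes of the positive arm *Rora* alone was called. The 7 include *Per1*, *Per3*, *Cry2* and *Bhlhe41*, whose calls are given above. None of the 25 was called between the arrays labelled WT diaphragm and WT gastrocnemius, where *Bhlhe40* had a log2 fold change of -0.79 (limma, adjusted p = 0.065) and *Nfil3*, which encodes the repressor of D-box genes, of 0.96 (limma, adjusted p = 0.083). *Nfil3* was at 9.36, 8.16 and 8.48 on the arrays labelled WT diaphragm, so that 1 array lay well above the others. *Ciart* had the lowest value of the negative arm there, a log2 fold change of -1.20. It averaged 5.94 ± 0.55 on the arrays labelled WT diaphragm and 7.15 ± 0.12 in WT gastrocnemius (SD, n = 3 each).

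**Figure D4:**
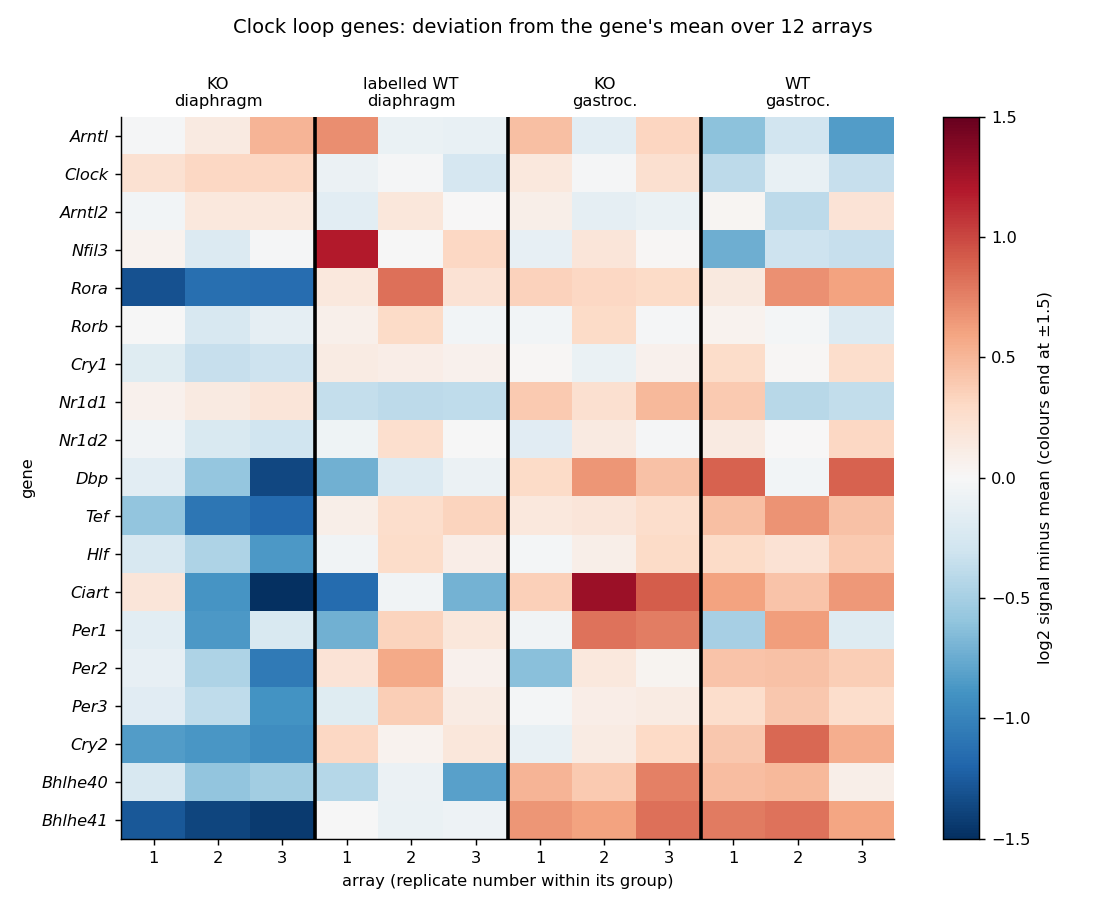
Log2 signal of 19 genes of the clock loop (rows) on each of the 12 arrays (columns, by group), as the difference from the gene's mean over all arrays. Blue is lower and red is higher. *Rora*, *Cry2*, *Tef* and *Bhlhe41* are lower on all 3 KO diaphragm arrays, and *Dbp*, *Ciart*, *Arntl* and *Per1* vary among arrays of the same group.

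The 10 members, taken as a set, varied more among arrays of the same group than most genes did. The residual SD of the model, which pools the spread within the 4 groups, had a median of 0.240 over the members, beside 0.138 over all genes. It was above the median of all genes for 9 of 10 members and above the 90th percentile of 0.224 for 6. *Per1* had 0.51, *Dbp* 0.45, and *Arntl* and *Per2* 0.34 each, while *Bhlhe41* had 0.10. The members with the widest spread thus had the widest intervals for every comparison above.

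Within each group, the array with the highest *Arntl* was also the one with the lowest *Dbp*. This was noticed after the values were seen and is given as a description, without a test. The arrays were KO diaphragm replicate 3, replicate 1 labelled WT diaphragm, KO gastrocnemius replicate 1 and WT gastrocnemius replicate 2. *Dbp* was at 7.50 on the first of these against 8.29 or more on the other KO diaphragm arrays, at 8.15 against 8.66 or more in the group labelled WT diaphragm, at 9.15 against 9.31 or more in KO gastrocnemius, and at 8.83 against 9.75 or more in WT gastrocnemius. *Nr1d2*, *Ciart* and *Hlf* were also lowest on that array in 4 of 4 groups, *Per3* and *Tef* in 3 of 4, and *Per1*, *Per2* and *Cry2* in 2 of 4. *Per1*, *Per2*, *Per3* and *Tef* were highest on that array in 1 of 4 groups, WT gastrocnemius. *Cry2* was highest on that array in 2 of 4 groups. *Nr1d1*, whose receptor represses *Arntl*, was lowest there in 1 of 4 groups and highest in 2. *Bhlhe41*, the member with the largest difference between groups, was lowest there in 1 of 4 groups and highest in 2.

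**Figure D5:**
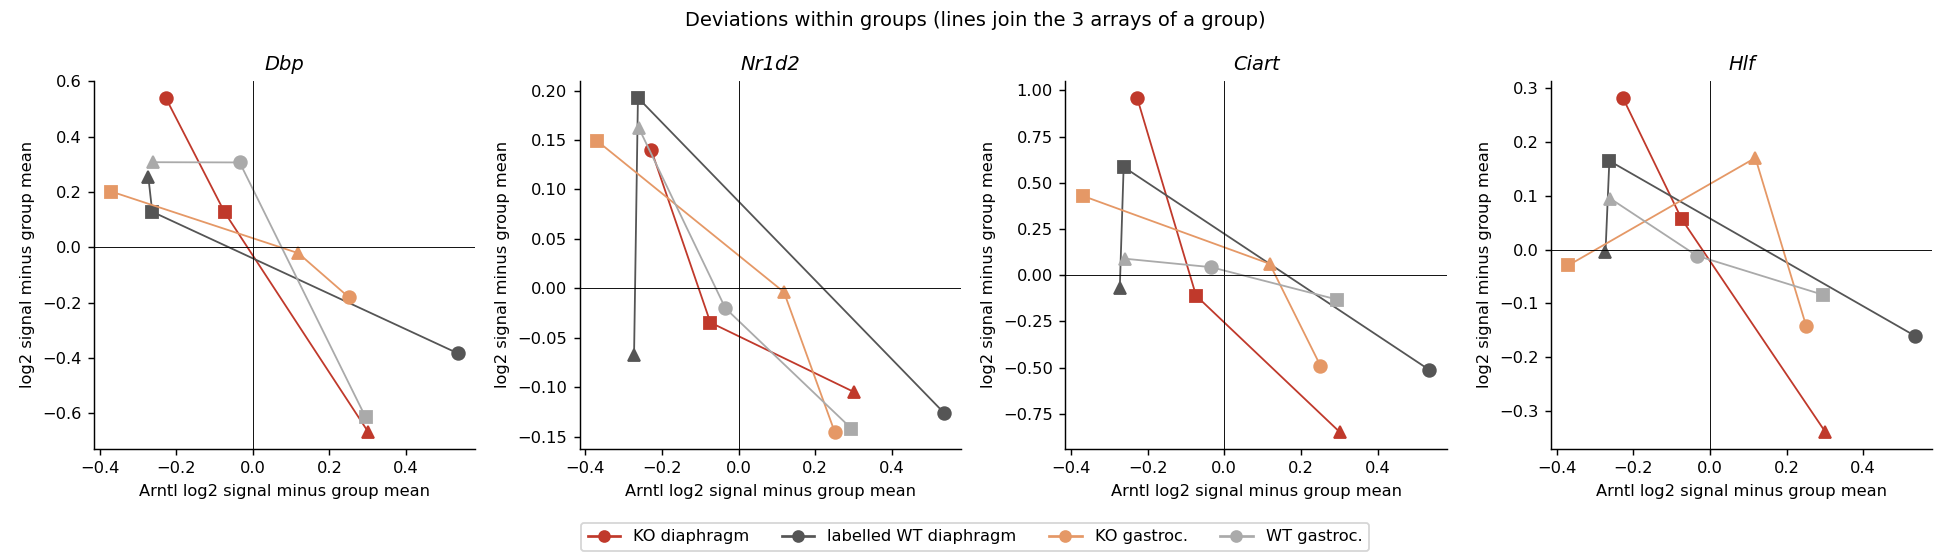
Deviation of *Dbp*, *Nr1d2*, *Ciart* and *Hlf* from the group mean (vertical axes, log2 signal) against that of *Arntl* (horizontal axes, log2 signal), with a colour for each group and lines joining its 3 arrays. In every panel the array farthest to the right in a group is the lowest of that group.

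Glucocorticoid hormones, which follow the day and rise with stress, also switch on *Per1* in many tissues, so genes that respond to them and to handling were read beside the clock. Of 12 immediate-early genes, which respond within minutes to activity and stress, 3 rose in KO gastrocnemius, *Fos* (log2 fold change 2.21; limma, adjusted p = 0.00048), *Egr1* (1.49; adjusted p = 0.019) and *Fosb* (0.96; adjusted p = 0.020), and none fell. In diaphragm 5 were called higher in KO mice, among them *Fos* (1.19), *Ier2* (0.73), *Btg2* (1.11) and *Egr1* (0.92), and 2 lower, *Nr4a1* (-0.67) and *Nr4a3* (-1.30), which were named after their values were seen. Of 14 glucocorticoid response genes *Ddit4* alone was called in gastrocnemius, higher in KO mice (1.64; limma, adjusted p = 0.018). In diaphragm none was higher and 4 were lower, *Fkbp5* (-1.60), *Tsc22d3* (-1.32), *Sgk1* (-0.93) and *Zbtb16* (-0.62). *Tsc22d3* is also in the list of widely rhythmic outputs, so its calls here are the same ones counted above. Within KO mice, 4 immediate-early genes were lower in diaphragm than in gastrocnemius, *Nr4a1* (-1.29), *Jun* (-0.90), *Fos* (-0.997) and *Fosb* (-0.59), and none was higher. Of the glucocorticoid response genes 5 were lower there, among them *Ddit4* (-2.01), *Tsc22d3* (-1.32), *Sgk1* (-0.75) and *Cebpd* (-0.99), and 1 was higher. *Nr4a3* was the only gene of these lists called between the arrays labelled WT diaphragm and WT gastrocnemius (log2 fold change 2.44; limma, adjusted p = 0.021). Over all genes, 0.406% were called higher and 0.186% lower in gastrocnemius, and 16.3% and 11.2% in diaphragm. Between the KO muscles the shares were 17.7% and 11.2%. The part of handling or hormone state in the clock gene values was not tested.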

How the data were processed

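RNA of 12 muscle samples was measured on Affymetrix mouse Gene 1.0 ST arrays. The authors background-corrected, normalized and summarised the scanner files with RMA sketch in Affymetrix Expression Console, whose version is not given in the sources used here, and the deposited values are log2 signals per probe set. Array data hold no read depth, and the number of arrays limits the precision. Of 35556 probe sets, 21789 had 1 symbol in the platform annotation, 1621 several and 12146 none there; the first kind was used, with the brightest probe set per gene. The 19938 genes were fitted in R 4.3.3 with limma 3.58.1 (lmFit, eBayes; 4 group means, no covariate). The design used no replicate block, since no source says what a replicate number marks. On simulated data for KO minus WT gastrocnemius (19938 genes), the model found 48 of 100 genes shifted by a log2 difference of 0.5 and 91 of 100 shifted by 1, and made 7 false calls. The shifted genes were drawn at random from all genes, each with its own residual SD (median over all genes 0.138). The members had a wider spread (median 0.240), so these rates do not carry over to them.

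The members and gene lists were chosen with earlier results of these data known. Named genes were all 10 members, other called genes of the clock lists with up to 4 uncalled ones per comparison by smallest p, up to 4 called genes per comparison of the glucocorticoid and immediate-early lists, *Cox6a2*, *Hoxc10*, *Upk3b* and *Myh4* as label checks, and the 5 genes most like *Dbp* and *Arntl*. Other lists were markers of hindlimb and cervical position, mesothelium, skeletal muscle, white adipocytes and macrophages. Alternatives were median centring, quantile normalization, the mean of all probe sets, a filter on dim genes, the methods' t-test, trended robust eBayes, a replicate block (fixed, or random with statmod 1.5.0), a fit on the 2 groups only, omission of all arrays labelled WT diaphragm, and omission of each array in turn.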

Additional observations from a re-analysis of the deposited data

Results flagged for a closer look

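For 2 of the 10 clock genes the difference between KO and WT was not the same in the 2 muscles by the test of the interaction (limma, over all 19938 genes). The interaction was called for 14.8% of all genes in either direction, so that 2 of 10 lies near that share. It was called lower for 6.07% of all genes. The interaction of *Tef* was -0.86, from log2 fold changes of -1.18 in diaphragm and -0.32 in gastrocnemius, and that of *Bhlhe41* was -1.27, from -1.30 in diaphragm and -0.03 in gastrocnemius. In both genes every KO diaphragm array lay below every other array. These values rest on the arrays labelled WT diaphragm, and genotype and muscle cannot be told apart there. Groups of 3 arrays are too small for the check for single outlying arrays.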

How the results depend on the processing

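Groups of 3 arrays and the clock genes' wide spread limit what can be called, and the diaphragm comparison depends on arrays whose markers go against their label. *Bhlhe41*, *Tef* and *Cry2* remained called lower in diaphragm under all 16 alternatives, with log2 fold changes of -1.38 to -1.26, -1.36 to -1.07 and -1.17 to -0.99. In gastrocnemius the 118 genes called became 69 with the 2 groups alone, 217 after median centring, 77 without the arrays labelled WT diaphragm, and 2708 (unadjusted) or 0 (Benjamini-Hochberg) with the methods' t-test, which called 4 members unadjusted, *Arntl*, *Per3*, *Cry2* and *Tef*. Between the arrays labelled WT diaphragm and WT gastrocnemius, the 92 genes became 45 with the groups alone, 193 among genes at or above the median signal, and 1930 or 0 with the methods' t-test, and the 1 member became 2 or 0. With the methods' t-test after Benjamini-Hochberg adjustment, 1989 genes were called in diaphragm (5496 in limma), and 3478 genes and 3 members between the KO muscles (5767 and 6 in limma). Leaving out single arrays gave 32 to 81 genes and 0 to 1 members in gastrocnemius, 3 to 6 members in diaphragm (3 without KO diaphragm replicate 3 or replicate 2 labelled WT diaphragm), and 39 to 84 genes between the arrays labelled WT diaphragm and WT gastrocnemius. The gastrocnemius count was 32 to 58 without any 1 of 5 of its 6 arrays (all but WT replicate 2), and the last count 39 to 55 without any 1 of 5 of its 6 (all but replicate 2 labelled WT diaphragm).

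Signs turned only for values that were not called. After median centring the log2 fold change was 0.025 for *Bhlhe41* in gastrocnemius, -0.031 for *Arntl* in diaphragm and -0.12 for *Arntl* between the KO muscles, and the interaction of *Nr1d1* was -0.13. After quantile normalization *Arntl* had -0.041 in diaphragm and -0.063 between the KO muscles. Leaving out single arrays gave log2 fold changes of -0.11 to 0.31 for *Arntl* in diaphragm, -0.18 to 0.13 for *Arntl* between the KO muscles, -0.42 to 0.039 for *Dbp* and -0.10 to 0.014 for *Bhlhe41* in gastrocnemius, and -0.29 to 0.28 for *Per1* and -0.39 to 0.018 for *Nr1d1* between the arrays labelled WT diaphragm and WT gastrocnemius. The interactions then ran from -0.26 to 0.14 for *Nr1d1*, -0.16 to 0.022 for *Nr1d2* and -0.52 to 0.084 for *Dbp*. The cause of these changes was not tested. In diaphragm *Nr1d2* was called only after median centring (-0.32; limma, adjusted p = 0.048).

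The values gave little sign of pairing by replicate number: same-numbered arrays correlated at -0.07 to 0.15 in their deviations from the group means, and 1 of 12 was over 0.1. With so few arrays this check cannot show whether same-numbered samples shared a mouse, a litter or a day. With the replicate block as a fixed effect, 93 genes and 0 members were called in gastrocnemius and 5392 genes and 6 members in diaphragm. As a random effect (consensus correlation -0.03) the block gave 97 and 5309 genes, and *Per1* between the KO muscles was not called (limma, adjusted p = 0.051).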

Other observations

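Over the 12 arrays, the genes outside the lists whose log2 signal was most like that of *Dbp* were *Unc45bos* (Pearson r of 0.899), *Gad1* (0.897), *Kcna2* (0.896), *Usp17lc* (0.893) and *Fgf6* (0.890). For *Arntl* they were *Ifit1bl2* (0.874), *Irf2bp2* (0.867), *Ppp1r27* (0.860), *Grpel2* (0.850) and *Fam149b* (0.836). These are the highest of many values over 12 arrays that share 4 group means and 1 normalization, and they are given as a description. Some of the genes were dim, with group means of 2.84 to 3.04 for *Ifit1bl2*, 4.69 to 5.16 for *Usp17lc* and 5.47 to 5.69 for *Gad1*.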
